A study of Mus musculus with 9 samples.

Results

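Fas ligand, its receptor Fas and 5 caspases were followed across 3 populations of mouse CD8+ T cells from a model of graft-versus-host disease (GVHD), the attack of grafted T cells on a recipient's tissues. The members were the probe sets whose gene symbol was Casp1, Casp2, Casp4, Casp6, Casp8, Fas or Fasl, which makes 7 of the 13152 genes with a probe set of their own on the Affymetrix Mouse_430A_2 array, or 8 of its 22626 non-control probe sets. Fasl had 2 probe sets and the other 6 genes had 1 each. The postmitotic group held CD44-lo/CD62L-hi/CD8+ T cells, and the effector group, which the labels call effector memory T cells, held CD44-hi/CD62L-lo/CD8+ T cells. Both came from male B6/SJL mice that had received 10 Gy and a graft of naive CD8+ T cells from female C3H.SW donors with marrow depleted of T cells. They were recovered 14 days later, each preparation from 4 pooled recipients. The naive group held CD44-lo/CD62L-hi/CD8+ T cells, each preparation pooled from 2 normal female C3H.SW mice that were not irradiated or given a graft. Each group had 3 arrays, which the labels call biological replicates without saying which animals each drew on.

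Fas ligand is a membrane protein of activated killer T cells that binds Fas on a target cell or on another T cell. Bound Fas recruits the adaptor FADD and the initiator caspase-8, which cuts executioner caspases and the BH3-only protein Bid. A separate branch, caspase-1 and caspase-4 (known in mice as caspase-11), serves inflammasomes, where caspase-1 matures interleukin 1 beta and caspase-11 senses bacterial lipopolysaccharide. Most caspases are made as inactive precursors, so that their transcript level does not show their activity.

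Values are log2 signals of the deposited table. Zero signal corresponds to 6.64, the lowest possible value is 5.64, and differences between values close to these understate the true fold. A difference was called when its adjusted p was under 0.05 in limma, with the Benjamini-Hochberg adjustment over all 22626 probe sets. Array medians lay between 7.89 and 7.90, and 15.8% to 16% of probe sets were at or below zero signal on each array. The authors' quantile normalization makes these values alike, so they do not show that the arrays were comparable. The sort marker Cd44 averaged 7.33 ± 0.40 in postmitotic, 11.11 ± 0.20 in effector and 7.28 ± 0.33 in naive cells (SD, n = 3 each). The T cell gene Cd3e was at or above 12.25 on all 9 arrays. Of 7 measured CD8 T cell genes, Cd8b1 was higher and Cd3g lower in postmitotic than in effector cells (0.62 and -0.44, adjusted p = 0.0038 and 0.0143), Lck was higher in effector than in naive cells (0.31, adjusted p = 0.0455), and none differed between postmitotic and naive cells in limma. Transcripts of the Y chromosome, which female donor cells lack, were high on 2 arrays: Eif2s3y was at 11.47 on postmitotic replicate 3 and at 9.50 on effector replicate 3, while its highest value among the remaining 7 arrays was 7.02. Where leaving out both Y-positive arrays ended the call of a member or other pathway gene named here, its value without them is given. Calls of the cell type and sort markers were not checked in this way. The 3' probe set minus the 5' probe set of the transferrin receptor control, a sign of RNA length, was 1.07 to 1.75 on postmitotic, 1.28 to 1.94 on effector and 0.38 to 0.54 on naive arrays in log2 units. The same difference for actin was 1.35 to 1.48 on postmitotic, 0.78 to 0.97 on effector and 1.28 to 1.87 on naive arrays, so that the order of the groups differed between these controls, and for Gapdh it was 2.84 to 3.12 on all 9 arrays. Their part in the results was not tested.

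The 3 genes with group means more than 1 log2 unit apart were Fasl, Casp1 and Casp4. Their promoters are shown because these genes were all high in effector cells. The 250 bases before each gene's start are from RefSeq on mouse build GRCm38.p6, with all 7 genes matched by symbol (Casp4 had 2 starts, of which 1 is shown), and are written 5' to 3' along the gene's strand. Capitals mark matches to the NFAT core GGAAA or to the kappaB letters GGGANTTCC, on either strand.
Fasl (chr1:161788496-161788745, minus strand): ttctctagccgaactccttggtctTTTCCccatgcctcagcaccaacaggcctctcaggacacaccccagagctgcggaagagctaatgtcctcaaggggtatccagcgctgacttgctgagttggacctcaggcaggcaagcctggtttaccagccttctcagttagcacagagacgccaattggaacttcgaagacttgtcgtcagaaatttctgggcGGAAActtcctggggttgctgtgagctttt
Casp1 (chr9:5298267-5298516, plus strand): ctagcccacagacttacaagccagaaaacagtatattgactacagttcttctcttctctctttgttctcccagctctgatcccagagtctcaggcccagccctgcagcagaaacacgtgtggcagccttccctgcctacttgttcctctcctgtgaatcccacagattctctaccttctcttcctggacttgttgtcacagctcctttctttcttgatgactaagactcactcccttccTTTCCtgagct
Casp4 (chr9:5308599-5308848, plus strand): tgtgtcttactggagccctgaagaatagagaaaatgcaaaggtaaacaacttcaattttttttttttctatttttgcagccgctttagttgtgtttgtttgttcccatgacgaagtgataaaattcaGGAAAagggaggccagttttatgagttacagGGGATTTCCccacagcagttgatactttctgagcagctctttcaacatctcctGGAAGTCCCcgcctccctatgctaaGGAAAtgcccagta
The NFAT core occurs in 55.6% of the 32851 RefSeq promoter windows of this length, so its matches in these 3 windows are common letters. The kappaB letters occur in 1.43% of windows. Casp4 holds 2 such matches, which begin 92 and 39 bases before its start, the first of them overlapping an NFAT core match. The kappaB letters were chosen after the Casp4 sequence had been read. Of the other motifs searched, the AP-1 letters TGANTCA (6.75% of windows) and the STAT letters TTCNNNGAA (7.02%) had no match in these 3 windows and 1 match each in that of Fas. The interferon response element, GAAA on either side of any 2 bases (2.98%), and the T-box letters TCACACC (3.33%) had none in the windows of the 7 genes. A match is a run of letters and no measurement of binding.

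**Figure D1:**
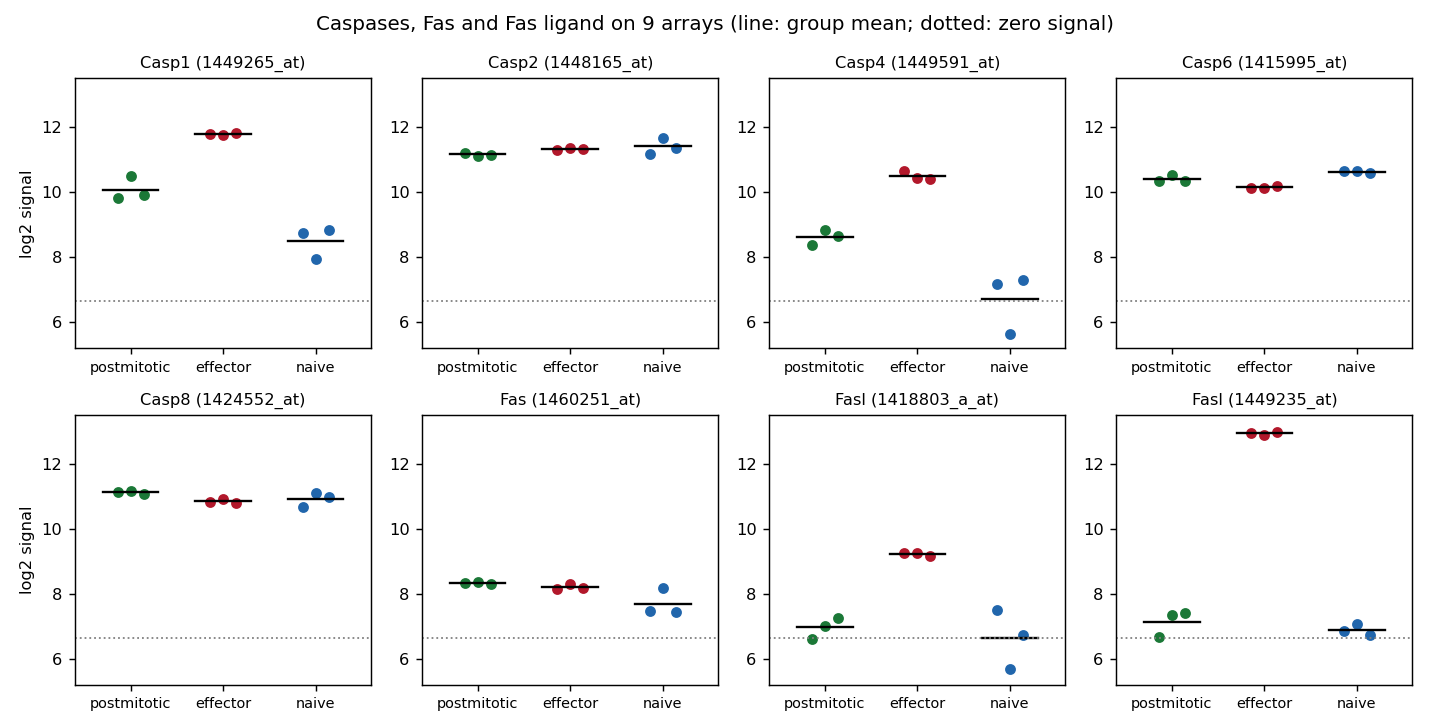
Log2 signal of the 8 probe sets on 9 arrays, with postmitotic, effector and naive cells on the x axis, a point per array, a black line at each group mean and a dotted line at zero signal (6.64). Fasl, Casp1 and Casp4 are highest on the effector arrays, and Casp1 and Casp4 lie in between on the postmitotic arrays, while Casp2, Casp6, Casp8 and Fas stay within 0.63 log2 units of one another between group means.

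Fas ligand was the member with the largest difference between groups. The brighter Fasl probe set, 1449235_at, read 6.66, 7.34 and 7.41 on the postmitotic arrays, 12.95, 12.88 and 12.99 on the effector arrays and 6.87, 7.07 and 6.74 on the naive arrays. The effector arrays stood far above all others, and the postmitotic and naive arrays overlapped just above zero signal. In effector cells Fasl rose 66.3-fold over naive cells (log2 6.05, SE 0.198, limma adjusted p = 8.28e-07). In postmitotic cells Fasl was 56.0-fold lower than in effector cells (log2 -5.81, adjusted p = 2.16e-06). Between postmitotic and naive cells it differed by log2 0.24 (adjusted p = 0.516), with a 95% interval of -0.21 to 0.70, or 0.864-fold to 1.62-fold.

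The dimmer Fasl probe set, 1418803_a_at, gave smaller differences in the same directions. It read 6.61, 7.02 and 7.27 on the postmitotic arrays, 9.25, 9.27 and 9.17 on the effector arrays and 7.51, 5.70 and 6.72 on the naive arrays. The 3 effector arrays agreed within 0.1 log2 units, whereas naive replicate 2 lay close to the lowest possible value. Effector cells were 6.01-fold above naive cells (log2 2.59, SE 0.397, adjusted p = 0.00179), and postmitotic cells were 4.79-fold below effector cells (log2 -2.26, adjusted p = 0.0046). Postmitotic minus naive was 0.33, with a 95% interval of -0.59 to 1.24 (adjusted p = 0.685), and its sign turned without naive replicate 2 (-0.15). Signals recovered from the log2 values of the brighter probe set were 1, 62 and 70 units on postmitotic, 7835, 7460 and 8045 units on effector and 17, 34 and 7 units on naive arrays. Natural killer cells also make Fas ligand. Of 6 natural killer cell markers 5 were measured and none differed between groups in limma; their summed signal was 63 to 321 units on postmitotic, 281 to 705 on effector and 64 to 239 on naive arrays, and Klrb1c was at or below zero signal on all 9 arrays. Some markers of other lymphocytes moved with the effector group. Foxp3, of regulatory T cells, was at -0.99 in postmitotic minus effector and 0.64 in effector minus naive cells (adjusted p = 0.00393 and 0.0238), and the plasma cell gene Jchain at -1.87 and 1.28 (adjusted p = 0.00323 and 0.0157). The B cell gene Cd79b went the other way, at 1.15 and -1.15 (adjusted p = 0.000587 and 0.000438). Only Foxp3, Jchain and Cd79b were called in any comparison among 3 CD4 and regulatory T cell and 7 B and plasma cell markers. Cd4 averaged 7.32 in postmitotic, 6.85 in effector and 6.92 in naive cells, and Zbtb7b 8.42, 8.48 and 8.40 in the same order. The summed signal of 3 CD4 and regulatory T cell markers was 187 to 436 units on postmitotic, 420 to 485 on effector and 257 to 429 on naive arrays, and that of 7 B and plasma cell markers 559 to 706, 581 to 745 and 655 to 794 units in the same order. The part of these cells in the Fasl result was not tested.

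Fas (1460251_at), the death receptor for this ligand, had smaller differences. It read 8.33, 8.35 and 8.29 on the postmitotic arrays, 8.16, 8.31 and 8.19 on the effector arrays and 7.46, 8.19 and 7.44 on the naive arrays. Naive replicate 2 lay within the effector range, and the other 2 naive arrays lay below every array from recipients. Postmitotic minus naive was log2 0.63 (95% interval 0.19 to 1.07, adjusted p = 0.0866) and effector minus naive 0.52 (0.08 to 0.96, adjusted p = 0.0866). Neither difference passed the test. Both passed without naive replicate 2, at 0.88 (adjusted p = 0.00762) and 0.77 (adjusted p = 0.00176). Postmitotic and effector cells differed by 0.11 (95% interval -0.33 to 0.55, adjusted p = 0.768), with overlapping arrays.

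Casp8 (1424552_at) encodes the initiator caspase that Fas recruits. Its log2 signals were 11.12, 11.17 and 11.07 on the postmitotic arrays, 10.84, 10.91 and 10.79 on the effector arrays and 10.68, 11.09 and 10.97 on the naive arrays. The postmitotic arrays lay above the effector arrays without overlap, and the naive arrays, from 10.68 to 11.09, overlapped each of them. No comparison of Casp8 passed the test. Postmitotic minus effector was 0.27 (95% interval -0.01 to 0.55, adjusted p = 0.171), effector minus naive -0.07 (-0.35 to 0.21, adjusted p = 0.755) and postmitotic minus naive 0.20 (-0.08 to 0.48, adjusted p = 0.365).

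Casp2 (1448165_at), an initiator caspase activated in a complex with the adaptor RAIDD, passed in no comparison either. It read 11.22, 11.12 and 11.14 on the postmitotic arrays, 11.29, 11.36 and 11.34 on the effector arrays and 11.18, 11.67 and 11.37 on the naive arrays. All 3 differences were under 0.3 log2 units, between -0.25 for postmitotic minus naive and -0.08 for effector minus naive, with adjusted p-values from 0.297 to 0.731. The 95% intervals of the 3 differences together ran from -0.55 to 0.22.

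Casp6 (1415995_at) encodes an executioner caspase whose substrates include nuclear lamins. It was the only one of the 8 probe sets called lower in effector than in naive cells. Its signals were 10.34, 10.53 and 10.34 on the postmitotic arrays, 10.14, 10.12 and 10.19 on the effector arrays and 10.64, 10.65 and 10.58 on the naive arrays. The 3 groups did not overlap, with naive arrays highest and effector arrays lowest. In effector cells Casp6 was 1.39-fold lower than in naive cells (log2 -0.47, SE 0.0945, adjusted p = 0.00662). Postmitotic cells lay in between, at 0.25 over effector cells (adjusted p = 0.102) and -0.22 from naive cells (adjusted p = 0.204), and neither of these passed. In the authors' deposited table the p-values of Casp6 were under the authors' limit of 0.01 in all 3 comparisons, but its folds did not reach the size required for selection.

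Casp1 (1449265_at), the inflammatory caspase of inflammasomes, rose in both populations from recipients. It read 9.82, 10.49 and 9.91 on the postmitotic arrays, 11.78, 11.75 and 11.81 on the effector arrays and 8.75, 7.93 and 8.83 on the naive arrays. The groups did not overlap, and the effector arrays agreed within 0.1 log2 units. In effector cells Casp1 rose 9.69-fold over naive cells (log2 3.28, SE 0.261, adjusted p = 5.22e-05). In postmitotic cells it rose 2.97-fold over naive cells (log2 1.57, SE 0.261, adjusted p = 0.0112) and was 3.26-fold lower than in effector cells (log2 -1.71, adjusted p = 0.00228). The postmitotic mean lay at 47.9% of the log2 distance from the naive to the effector mean. The rise in postmitotic cells did not pass when only the 6 arrays compared were fitted (adjusted p = 0.059), nor with both Y-positive arrays left out (log2 1.65, adjusted p = 0.0728).

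Casp4 (1449591_at), the other inflammatory caspase, followed the same order. Its signals were 8.38, 8.82 and 8.66 on the postmitotic arrays, 10.65, 10.43 and 10.39 on the effector arrays and 7.18, 5.64 and 7.31 on the naive arrays. The groups did not overlap, and naive replicate 2 was at the lowest possible value. In effector cells Casp4 rose 13.7-fold over naive cells (log2 3.78, SE 0.396, adjusted p = 0.000236). In postmitotic cells it was 3.75-fold above naive cells (log2 1.91, SE 0.396, adjusted p = 0.025) and 3.65-fold below effector cells (log2 -1.87, adjusted p = 0.0114). The postmitotic mean lay at 50.5% of the log2 distance from the naive to the effector mean, against 4.03% for the brighter and 12.6% for the dimmer Fasl probe set. The difference between postmitotic and naive cells kept its size but not its call without postmitotic replicate 1 (adjusted p = 0.0536), 2 (0.0812) or 3 (0.0703), with the 6 arrays alone (0.0938) and with both Y-positive arrays left out (0.127), and the difference between postmitotic and effector cells lost its call in that last case (log2 -1.94, adjusted p = 0.0865). The postmitotic, effector and naive groups enter these comparisons in pairs, so that the 3 differences of a gene share arrays and are not independent.

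Macrophages and other myeloid cells also express caspase-1 and caspase-11, and bulk arrays cannot tell fewer cells of a type from less RNA per cell. Of 15 myeloid markers, all measured, Cebpb, Ly86 and Cd68 rose and Cd14 fell in effector against naive cells, and only Cebpb rose in postmitotic against naive cells. Between postmitotic and effector cells Ctss was higher and Csf1r, Ly86 and Cd68 were lower in postmitotic cells. Csf1r had 1973, 401 and 571 units on the postmitotic and 1743, 5290 and 3736 units on the effector arrays, so that these groups overlapped. The summed signal of the list was 20169 to 25912 units on postmitotic, 18771 to 21969 on effector and 19817 to 22626 on naive arrays. Most of that sum was Ctss, at 13706 to 21582 units an array, and the dimmer Cd68 had 54 to 60 units on postmitotic, 388 to 540 on effector and 26 to 86 on naive arrays. Cd14 was at or below zero signal on every effector array. Of 7 measured dendritic cell and class II markers out of 8, Itgax, H2-Aa and H2-Ab1 rose in effector against naive cells, Itgax fell in postmitotic against effector cells, and none differed between postmitotic and naive cells in limma. Their summed signal was 1165 to 4157 units on postmitotic, 4061 to 4621 on effector and 1107 to 1507 on naive arrays. H2-Aa had 2160 units on postmitotic replicate 1, against 445 and 542 on replicates 2 and 3. It had 1813 to 2109 units on effector and 416 to 554 on naive arrays. H2-Ab1, H2-Eb1, Cd74 and Itgax were also highest on replicate 1 among the postmitotic arrays, and Flt3 and Zbtb46 were not. Of the myeloid markers, Adgre1, Cebpb, Csf1r, Ctss, Fcgr3, Mpo, S100a8 and S100a9 were highest on that replicate among the postmitotic arrays. Cd14, Cd68, Csf3r, Elane, Itgam, Ly86 and Lyz2 were not. The part of myeloid, dendritic and class II cells in the Casp1 and Casp4 results was not tested.

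**Figure D2:**
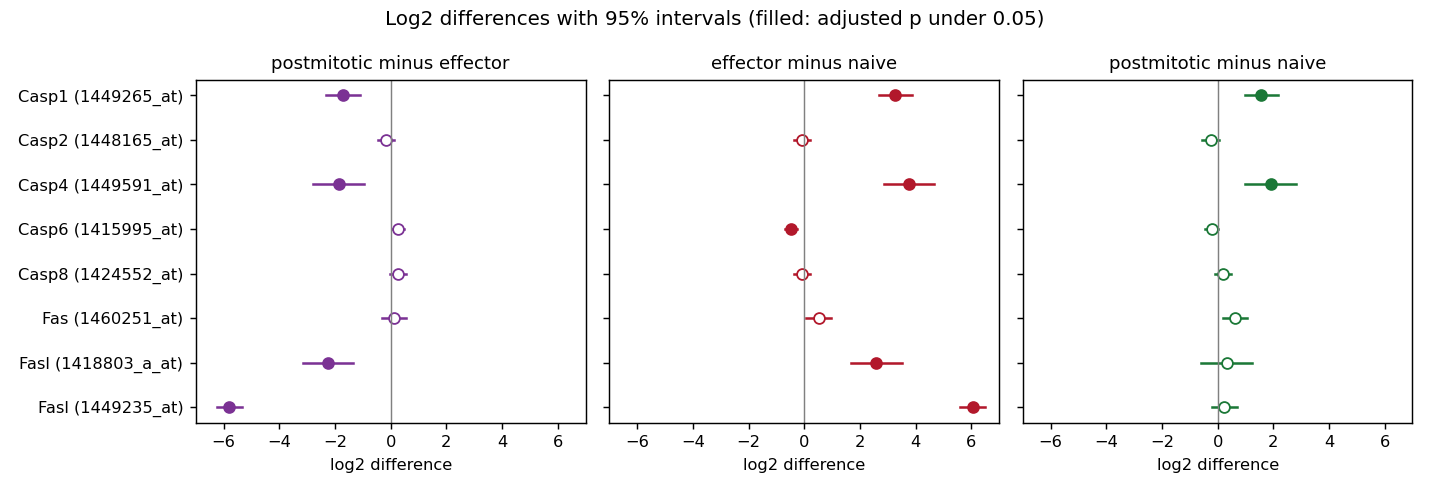
Log2 differences (x axis) of the 8 probe sets in postmitotic minus effector, effector minus naive and postmitotic minus naive cells, with 95% intervals from limma as bars and filled points for adjusted p under 0.05. Fasl, Casp1 and Casp4 lie left of 0 in the first panel and right of 0 in the second, Casp6 alone is filled on the left in the second, and Casp1 and Casp4 alone are filled in the third.

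Over the 8 probe sets, 4 fell and none rose in postmitotic against effector cells, where 20.0% of all probe sets were called (10.4% higher and 9.68% lower). In effector against naive cells 4 rose and 1 fell, beside 26.0% of all probe sets called (12.4% higher and 13.6% lower). In postmitotic against naive cells 2 rose and none fell, beside 8.19% called (4.23% higher and 3.96% lower). The median log2 difference over the 8 probe sets was -0.94, 1.55 and 0.28 in these 3 comparisons, against 0.03, -0.05 and -0.01 over all probe sets. The groups did not overlap for 7, 5 and 4 of the 8 probe sets, where 38.8%, 41.6% and 26.5% of all probe sets had no overlap. A moderated F test over the 3 groups passed for Casp1 (adjusted p = 0.000144), Casp4 (0.000641), Casp6 (0.0161) and both Fasl probe sets (0.00293 and 1.38e-06), beside 28.2% of all probe sets. It did not pass for Fas (0.0741), Casp8 (0.251) or Casp2 (0.353). In the authors' deposited table, Casp1 and Casp4 were selected in all 3 comparisons and both Fasl probe sets in the 2 that involve effector cells, while Casp6 and Fas were selected in none.

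**Figure D3:**
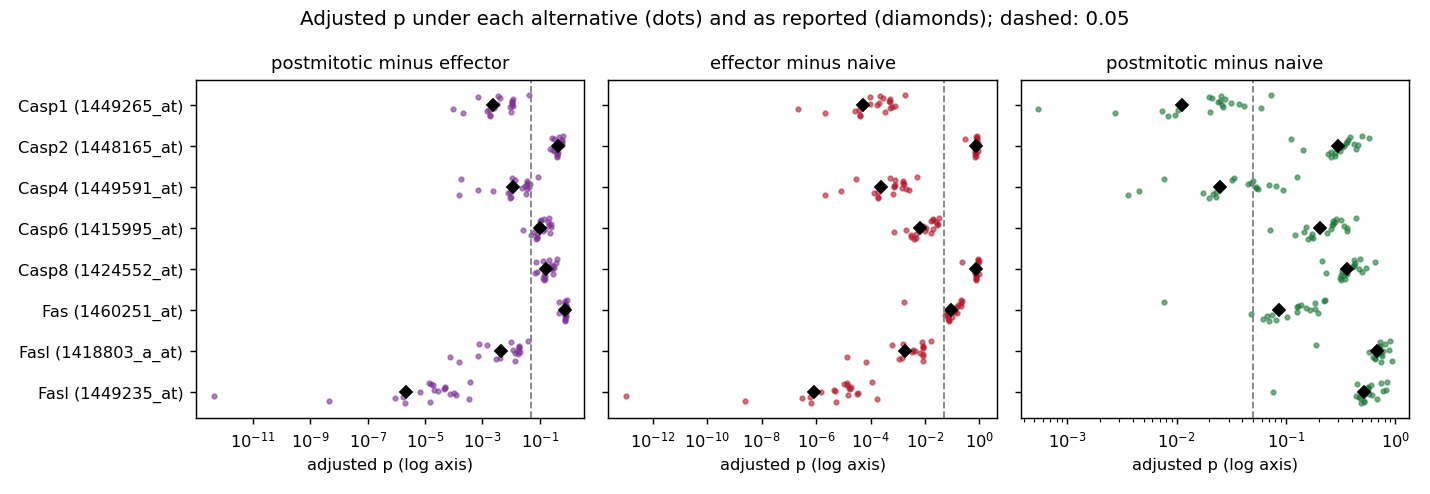
Adjusted p (x axis, log scale) of the 8 probe sets in each comparison, as reported (diamonds) and under the alternative settings (dots), with a dashed line at 0.05. In effector minus naive cells all dots of Fasl, Casp1, Casp4 and Casp6 lie left of the line, whereas in postmitotic minus naive cells the dots of Casp1 and Casp4 fall on both sides.

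The genes whose probe sets were most like a member over the 9 arrays, by Pearson's r, were named for the 3 genes with group means over 1 log2 unit apart. For Fasl they were Plek (0.9969), which encodes the platelet and leukocyte protein pleckstrin, the vesicle fusion gene Vamp3 (0.9956) and the endocytic adaptor gene Hip1 (0.9955). Plek averaged 7.03 in postmitotic, 9.82 in effector and 6.94 in naive cells, the order of Fasl. For Casp1 they were Zcchc18 (0.9920), the dynein light chain gene Dynll2 (0.9914) and Cox5b (0.9906), a subunit of cytochrome c oxidase. For Casp4 they were Slamf7 (0.9886), a receptor of activated lymphocytes, the replication licensing gene Cdc6 (0.9883) and BC004004 (0.9874). These values are the highest of all single-gene probe sets over 9 arrays that share 3 group levels, and they are given as a description.

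The rest of the pathway was read from a list of 57 other genes of death receptors, apoptosomes and inflammasomes, of which 48 had a single-gene probe set, and the brightest stood for each gene. In effector against naive cells 13 of the 48 rose and 5 fell, beside 13.7% of all genes higher and 15.4% lower, and the median difference was log2 0.07 against -0.06 over all genes. In postmitotic against naive cells Ripk3 rose and none fell, beside 4.94% of all genes higher and 4.52% lower, and this count of 1 ran from 0 to 9 over the alternative settings and was 2 without each single naive array. In postmitotic against effector cells 5 rose and 11 fell, beside 12.1% of all genes higher and 10.9% lower. The total called in that comparison, 16 in both directions together, was 10 without effector replicate 2 and 8 with both Y-positive arrays left out.

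Bid, Apaf1 and Lmnb1 rose in effector cells. Bid, cut by caspase-8 to engage the mitochondria, rose by log2 1.14 in effector against naive cells (adjusted p = 0.000263), and Apaf1, the scaffold of the apoptosome, by 1.13 (adjusted p = 0.00022). Both were lower in postmitotic than in effector cells, by -0.91 and -1.45. The call of Bid was lost there with the mean of its probe sets (-0.46, adjusted p = 0.117). The other Bid probe set in that mean lay below zero signal on average, at 6.20 in postmitotic, 6.22 in effector and 5.95 in naive cells. Lmnb1, which encodes lamin B1, rose by 1.43 on its brightest and 2.22 on its other probe set in effector cells. The other probe set of Apaf1, close to zero signal, gave 0.43 and did not pass (adjusted p = 0.31). Casp9, the initiator caspase of the apoptosome, differed by -0.38 in effector against naive cells (adjusted p = 0.113), and neither Casp12 nor Casp14, both close to zero signal, passed in any comparison.

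**Figure D4:**
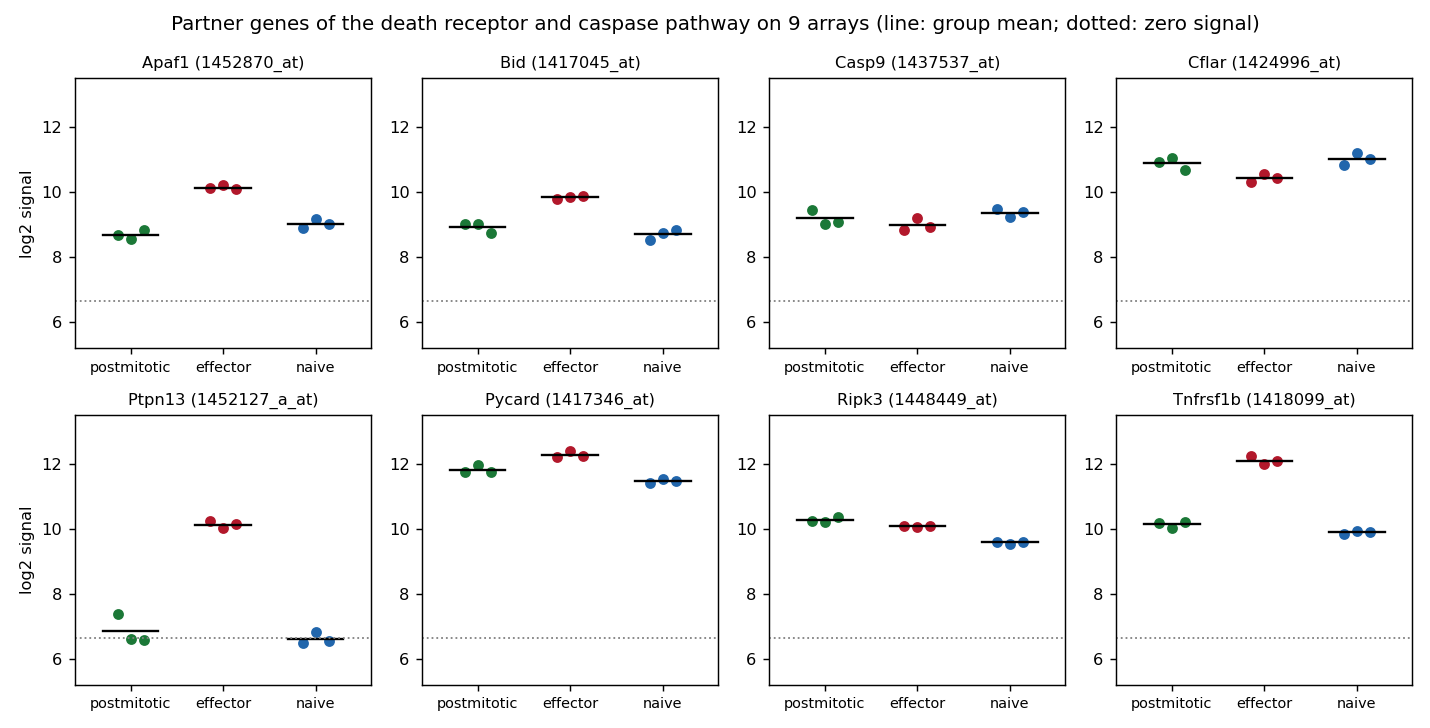
Log2 signal of 8 other genes of the pathway on 9 arrays, with postmitotic, effector and naive cells on the x axis, a point per array, a line at each group mean and a dotted line at zero signal (6.64). Apaf1, Bid, Ptpn13, Pycard and Tnfrsf1b are highest on the 3 effector arrays, Cflar is lowest there, and Ripk3 is lowest on the naive arrays.

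Ptpn13, a tyrosine phosphatase known in human cells to bind Fas, rose most of the list, with 7.38, 6.61 and 6.59 on postmitotic, 10.23, 10.02 and 10.14 on effector and 6.49, 6.83 and 6.54 on naive arrays. Its difference was log2 3.51 in effector against naive cells (adjusted p = 1.25e-05) and -3.27 in postmitotic against effector cells (adjusted p = 3.24e-05). The other probe set of Ptpn13 gave 0.07 (adjusted p = 0.764) and -0.23 (adjusted p = 0.248). It was close to zero signal, with means of 7.18 in postmitotic, 7.41 in effector and 7.35 in naive cells. Tnfrsf1b, a receptor for tumour necrosis factor without a death domain, rose by 2.22 in effector cells (adjusted p = 3.56e-06) and was at -1.96 in postmitotic against effector cells. Its other probe set lay below zero signal in all 3 groups on average. Tnfsf10, which encodes the death ligand TRAIL, rose by 1.42 in effector cells (adjusted p = 0.0151), a call lost without effector replicate 1 (0.0503) or 2 (0.0501).

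Cflar, which encodes the caspase-8 inhibitor FLIP, fell by 0.58 in effector against naive cells (adjusted p = 0.0188). That call was lost without effector replicate 1 (0.0686) or 3 (0.0623) or naive replicate 2 (0.0577) or 3 (0.0528), with both Y-positive arrays left out (-0.57, adjusted p = 0.0543), and with the mean of its probe sets (-0.26, adjusted p = 0.137). The other Cflar probe sets gave -0.36 (adjusted p = 0.0472), -0.24 (adjusted p = 0.455) and 0.14 (adjusted p = 0.387) in the same comparison. The adaptor gene Fadd passed in no comparison, at -0.21 in postmitotic minus effector, -0.22 in effector minus naive and -0.42 in postmitotic minus naive cells (adjusted p = 0.464, 0.402 and 0.168). Cradd, which encodes the caspase-2 adaptor RAIDD, did not pass either, at -0.42 in effector minus naive cells (adjusted p = 0.227). Lta, which encodes lymphotoxin alpha, fell by 0.90 in effector against naive cells (adjusted p = 0.000482) and was higher by 0.76 in postmitotic than in effector cells (adjusted p = 0.00155).

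Among inflammasome genes and their cytokines, Nlrp3, Aim2, Il1a, Il1b and Il18 passed in no comparison, Il18 being at 0.81 in effector minus naive cells (adjusted p = 0.0508). Pycard, the adaptor that joins sensors to caspase-1, rose by log2 0.80 in effector against naive cells (adjusted p = 0.000806). In postmitotic minus naive cells it differed by 0.34 (95% interval 0.09 to 0.58, adjusted p = 0.0927), and in postmitotic minus effector cells by -0.46 (adjusted p = 0.0162). The latter call was lost without postmitotic replicate 1 (0.0539), without effector replicate 2 (0.0681) and with both Y-positive arrays left out (0.108). It was also lost with the mean of its probe sets (-0.33, adjusted p = 0.103). The other Pycard probe set in that mean was close to zero signal, at 7.27 in postmitotic, 7.47 in effector and 7.01 in naive cells. Outside the inflammasome, Ripk3, a kinase of necroptosis, read 10.24, 10.20 and 10.35 on postmitotic, 10.08, 10.06 and 10.09 on effector and 9.61, 9.54 and 9.58 on naive arrays. Both populations from recipients lay above the naive arrays. Ripk3 rose by 0.68 in postmitotic cells (adjusted p = 0.00455) and by 0.50 in effector cells (adjusted p = 0.00367) relative to naive cells, and the first of these calls was lost with both Y-positive arrays left out (0.64, adjusted p = 0.0517).

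**Figure D5:**
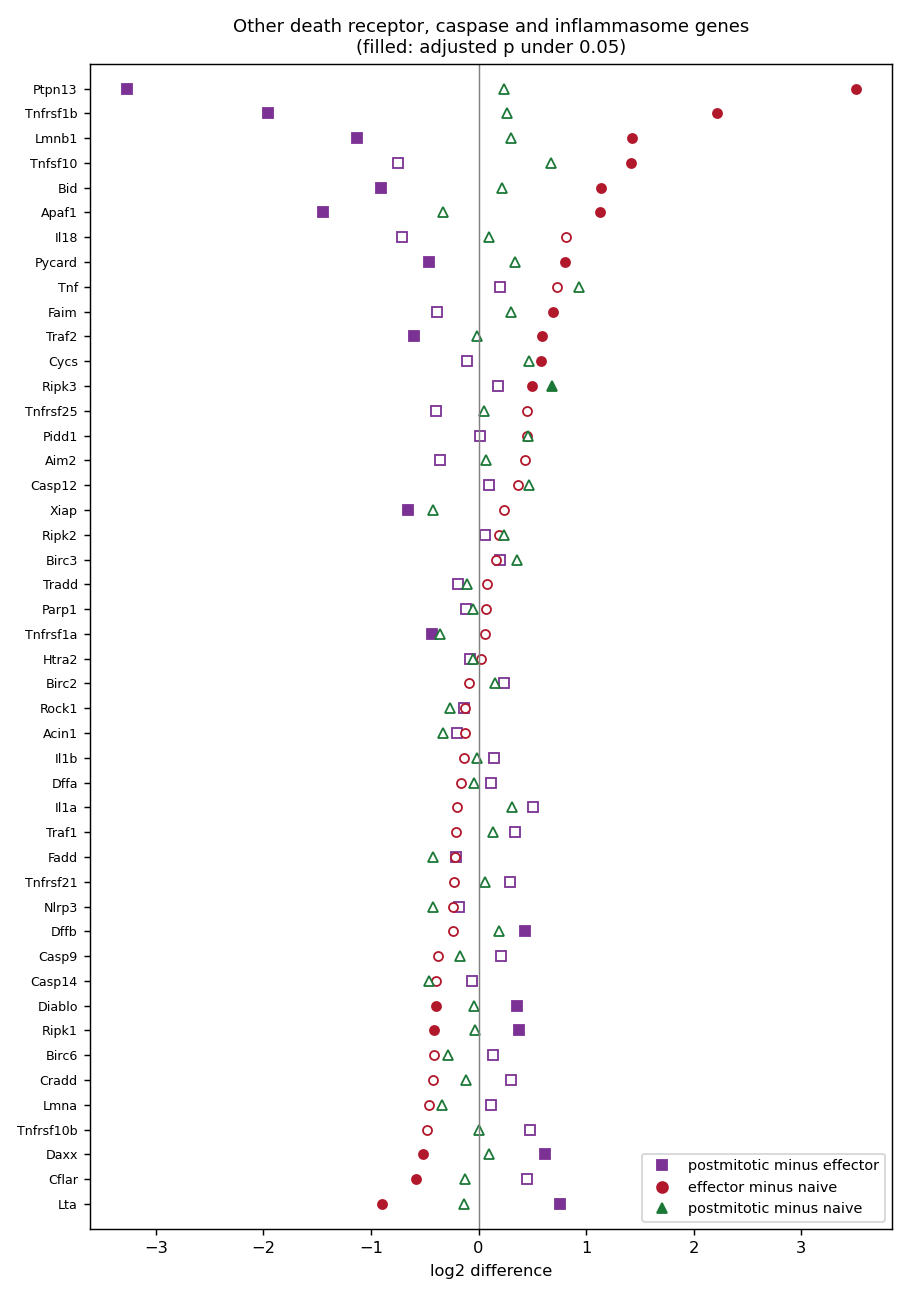
Log2 differences (x axis) of 46 of the 48 other pathway genes, ordered by effector minus naive, with squares for postmitotic minus effector, circles for effector minus naive and triangles for postmitotic minus naive cells, filled where the adjusted p was under 0.05. Of the triangles only that of Ripk3 is filled, while 16 circles and 14 squares are.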

How the data were processed

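The members and gene lists were chosen with earlier results of these data known. The RNA, 600 ng a sample, was amplified in 2 rounds before hybridisation, per the labels' protocols. Per the file headers, the authors reduced scanner files to trimmed means per probe set, quantile-normalized them to the array of naive replicate 2 and deposited log2 values of the signal after adding 50, setting negative values to 0 and adding 50 again. Because of the quantile step, a change in total RNA per cell leaves no trace. The authors' deposited p-values belong to pairwise contrasts and were left unadjusted, their fold columns are ratios from group means, their score columns give the signed fold of selected probe sets, and their mean squares were not used. Scanner files were not used here, and the number of arrays limits the precision. The log2 values of the series matrix were the same within 5e-09.

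Gene symbols came from a RefSeq table (GRCm38.p6) by Entrez number. Of the array's 22690 probe sets, 21259 named 1 gene, with 20752 matched and 507 left at the deposited symbol, while 826 named several genes, 541 none, and 64 were controls. All 22626 non-control probe sets entered limma 3.58.1 in R 4.3.3 (lmFit, eBayes, a mean per group over 9 arrays, no covariate, 6 residual and 2.22 prior degrees of freedom), with no filter on low values, two-sided, and Benjamini-Hochberg adjustment. The fit was tested on simulated data. All member probe sets were named; of other pathway genes, the 8 with the largest called differences per comparison and direct partners of members; and the 3 most alike probe sets per member. Values of some listed genes are not reported here. Casp12, Casp14, Nlrp3, Aim2, Il1a, Il1b and Il18 were named after their values had been seen. Alternatives changed the offset, scaling, variance prior, probe set summary, filter and the arrays fitted.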

Additional observations from a re-analysis of the deposited data

How the results depend on the processing

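Of 474 recomputed values of the 24 member differences, 456 kept their direction and side of the threshold, 10 lost the threshold, 5 gained it and 3 changed sign. The 3 sign changes all came without naive replicate 2 and stayed far from the threshold: Casp2 (0.05) and Casp8 (0.02) in effector minus naive cells, and the dimmer Fasl probe set in postmitotic minus naive cells (-0.15). When each array was left out in turn these 3 differences ran from -0.19 to 0.05, -0.18 to 0.02 and -0.15 to 0.76. The offset sets the size of the folds of dim genes: effector minus naive of the brighter Fasl probe set ran from 4.32 with the larger offset to 7.86 with the smaller, and that of Casp4 from 2.86 to 5.01. Casp6 passed in postmitotic minus effector cells with the smaller offset (0.27, adjusted p = 0.0493) and with the authors' p-values (adjusted p = 0.027). Fas passed in postmitotic minus naive cells with the trended robust variance prior (adjusted p = 0.0479). The number of member probe sets called was within 1.5 times the reported one under every alternative in postmitotic minus effector (3 to 5, against 4) and effector minus naive cells (4 to 6, against 5). In postmitotic minus naive cells it was 2, and it was 0 in a fit of the 6 arrays alone and without the Y-positive arrays, 1 with the authors' p-values and with the replicate block, and 1 to 3 when 1 array was left out (1 without each single postmitotic array, 3 without naive replicate 2). The called pathway genes in that comparison numbered 1, against 4 with 1 probe set per gene, the smaller offset or dim probe sets left out, 2 with the mean of a gene's probe sets or the replicate block, 5 with the larger offset, 9 with the trended robust prior, 3 with the authors' p-values, 0 without the Y-positive arrays, and 1 to 2 when 1 array was left out (2 without each single naive array). In postmitotic minus effector cells they numbered 16, against 8 without the Y-positive arrays and 10 to 16 when 1 array was left out. Of 700 recomputed values of the 35 called pathway differences, 621 kept their call, 79 lost it and none changed sign. The cause of these changes was not tested. Replicate numbers were not taken to pair the samples, since the labels do not state that same-numbered arrays were paired. Deviations from group means of same-numbered arrays correlated at 0.009 to 0.071 across probe sets, which cannot show whether they were paired. All 9 of these correlations were positive, and in 8 the same number gave the highest correlation, a hint from the data and not from the design; the exception was effector replicate 2, at 0.018 with naive replicate 3 and 0.014 with naive replicate 2. Both Y-positive arrays were replicate 3 of their group. The 3' minus 5' difference of the transferrin receptor control was highest on replicate 3 and lowest on replicate 2 in each group. That of actin was highest on replicate 1 in each group, and that of Gapdh kept no such order. Whether same-numbered arrays shared a preparation was not tested. With the replicate block, Casp4 in postmitotic minus naive cells had adjusted p = 0.0532 at the same difference of 1.91.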

Other observations

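Naive replicate 2, which the authors used as the standard of their quantile normalization, was the lowest or the highest of the 3 naive arrays for all 8 probe sets, the lowest for 3 and the highest for 5. It was lower for Casp1 (7.93, against 8.75 and 8.83), Casp4 (5.64, against 7.18 and 7.31) and the dimmer Fasl probe set (5.70, against 7.51 and 6.72). It was higher for Fas (8.19, against 7.46 and 7.44) and Casp2 (11.67, against 11.18 and 11.37). For Casp6 the gap was small (10.65, against 10.64 and 10.58). Any array of 3 is often the lowest or the highest, and the share over all probe sets was not counted. With 3 arrays in the group the place of naive replicate 2 was not tested.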
